A study of Drosophila melanogaster with 3 samples.

Results

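The genes described here are 10 core genes of the Notch pathway of Drosophila melanogaster: N, Dl, Ser, fng, neur, mib1, numb, bib, Su(H) and H. They were chosen by name from the 13945 protein-coding genes annotated on the 6 chromosome arms. Each gene was given every peak of CG17186-GFP whose summit lay within 500 bp of one of its transcription start sites (TSSs) or inside its gene body. The data are chromatin immunoprecipitation followed by sequencing (ChIP-seq) from whole embryos aged 0 to 14 hours, males and females pooled, of a transgenic line that stably expresses the CG17186 protein with green fluorescent protein (GFP) at its C-terminus. The tagged protein and its DNA were recovered with an antibody against GFP after sonication to 200 to 800 bp, in 3 biological replicates that form 1 group. The labels name no promoter or cell type for the transgene, and a whole embryo mixes cells with active and inactive Notch signalling. There is no treated or untagged group, and the control library named in the labels was not analysed here.

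Notch is a transmembrane receptor that is activated by the ligands Delta and Serrate on a neighbouring cell. Activation cuts the receptor, and its intracellular domain enters the nucleus and joins the DNA-binding protein Suppressor of Hairless, Su(H), which otherwise holds target genes silent together with Hairless. In the fly embryo the pathway selects neuroblasts from the neurogenic ectoderm and separates daughter cell fates when neural precursors divide. The CG17186 protein is annotated only as uncharacterized.

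The deposited lists held 30000, 26139 and 30000 peaks for replicates 1, 2 and 3, and 23428 peaks for the 3 replicates pooled. The authors label the pooled list as holding background as well as peaks. The reproducible set, selected by the authors with the irreproducible discovery rate (IDR) procedure, held 3814 peaks and was identical to the 3814 strongest pooled peaks. Peak signal is the authors' value on the scale of their peak caller, and it ran in the reproducible set from 109.331 to 17743.4 with a median of 167.778. Ranks count from 1 for the strongest peak of a list. Relative signal sets a replicate's peak signal against the median of the same replicate over the 3758 reproducible peaks found in all 3 lists, so that 1 is a median shared peak. The files give no read counts, so the depth behind each value is unknown. Positions are on the dm6 build and distances are from the nearest TSS of the named gene.

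The sequences shown first are 4 promoters with a reproducible summit, because they carry a word of the search described below or a shortened form of one. All are 5′ to 3′ on the strand of the gene, from the RefSeq copy of the dm6 assembly. The 4 promoter sequences end at the base before the TSS, and capitals mark the word that was found. N lies on chrX:3134711-3134869 (+), mib1 on chr3L:16011813-16011912 (−), numb on chr2L:9449631-9449829 (+) and H on chr3R:20621838-20621937 (+). The word in N is GGTCACACT, that in numb is CAGCTG and that in H is CANCNCTA. In mib1 it is the shorter GTCACACT contained in GGTCACACT. This form was not planned for the search and was chosen after the sequences were seen.
N promoter: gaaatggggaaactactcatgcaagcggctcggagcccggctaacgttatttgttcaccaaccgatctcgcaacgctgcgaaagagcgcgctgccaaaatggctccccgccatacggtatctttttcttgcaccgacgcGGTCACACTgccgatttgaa
mib1 promoter: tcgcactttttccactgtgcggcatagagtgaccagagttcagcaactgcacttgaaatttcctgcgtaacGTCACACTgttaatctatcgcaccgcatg
numb internal promoter: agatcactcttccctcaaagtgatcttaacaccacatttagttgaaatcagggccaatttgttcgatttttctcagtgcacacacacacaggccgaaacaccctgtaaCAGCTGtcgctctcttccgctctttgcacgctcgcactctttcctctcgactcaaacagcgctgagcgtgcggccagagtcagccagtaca
H promoter: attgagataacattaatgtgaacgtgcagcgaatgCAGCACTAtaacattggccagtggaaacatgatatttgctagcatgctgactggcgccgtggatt

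A second pair of sequences shows the 2 strongest summits that lie in introns, away from any TSS. Each covers 101 bases centred on the summit, and capitals mark the 7 bases centred on it. The N intron is chrX:3162479-3162579 (+) and the neur intron is chr3R:9031991-9032091 (−). Neither holds any of the words searched, and the shares of G and C were 25.7% and 31.7%.
N intron: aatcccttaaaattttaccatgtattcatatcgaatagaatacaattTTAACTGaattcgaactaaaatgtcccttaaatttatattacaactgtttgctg
neur intron: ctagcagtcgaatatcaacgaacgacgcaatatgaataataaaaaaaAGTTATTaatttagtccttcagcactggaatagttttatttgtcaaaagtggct

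The gene of the receptor, those of both ubiquitin ligases of the ligands and that of the nuclear antagonist had summits within 200 bp of their first TSS, while both ligand genes and Su(H) had none in the reproducible set. At neur, a ligase gene, that peak is shared with the gene hyx. Its summits in the single replicates lay beyond 200 bp, at 254, 210 and 228 bp. A reproducible promoter summit was present at 6 of the 10 genes (N, mib1, H, numb, bib and neur), against 28.0% of all coding genes. Counting gene bodies as well, fng joined them and 7 of 10 had a summit, against 30.2%. Much of the list is long, and a long body has more room for a summit. Among the 7 genes with a body of at least 10 kb (all but mib1, Su(H) and H), 4 had a promoter summit and 5 a promoter or body summit, against 33.2% and 43.6% of the 1977 coding genes of that length. With so few genes, these shares describe the list and were not tested.

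The 10 genes held 11 reproducible summits, 8 at promoters and 3 in introns beyond 500 bp from a TSS. Their signal ran from 122.095 to 427.368 with a median of 219.281, against 167.778 for the whole set, and their ranks from 249 to 3279. The median relative signal was 1.17, against 0.977 over the 3758 reproducible peaks found in all 3 replicate lists. The first value counts the replicate peaks of H for both of its summits. It is 1.13 when replicate peaks are matched by summits within 200 bp. The value over shared peaks under that matching is not given here, so 1.13 cannot be set beside 0.977. Over the 179.459 kb of gene body lay 6 reproducible summits, among them promoter summits of neur, numb and H. Their density was 0.334 per 10 kb, against 0.195 in all coding genes and 0.137 in those of at least 10 kb. With so few summits this difference was not tested. In the pooled list, which also holds weak peaks and background, the density was 1.84 per 10 kb against 1.68 and 1.47 in the same order.

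**Figure D1:**
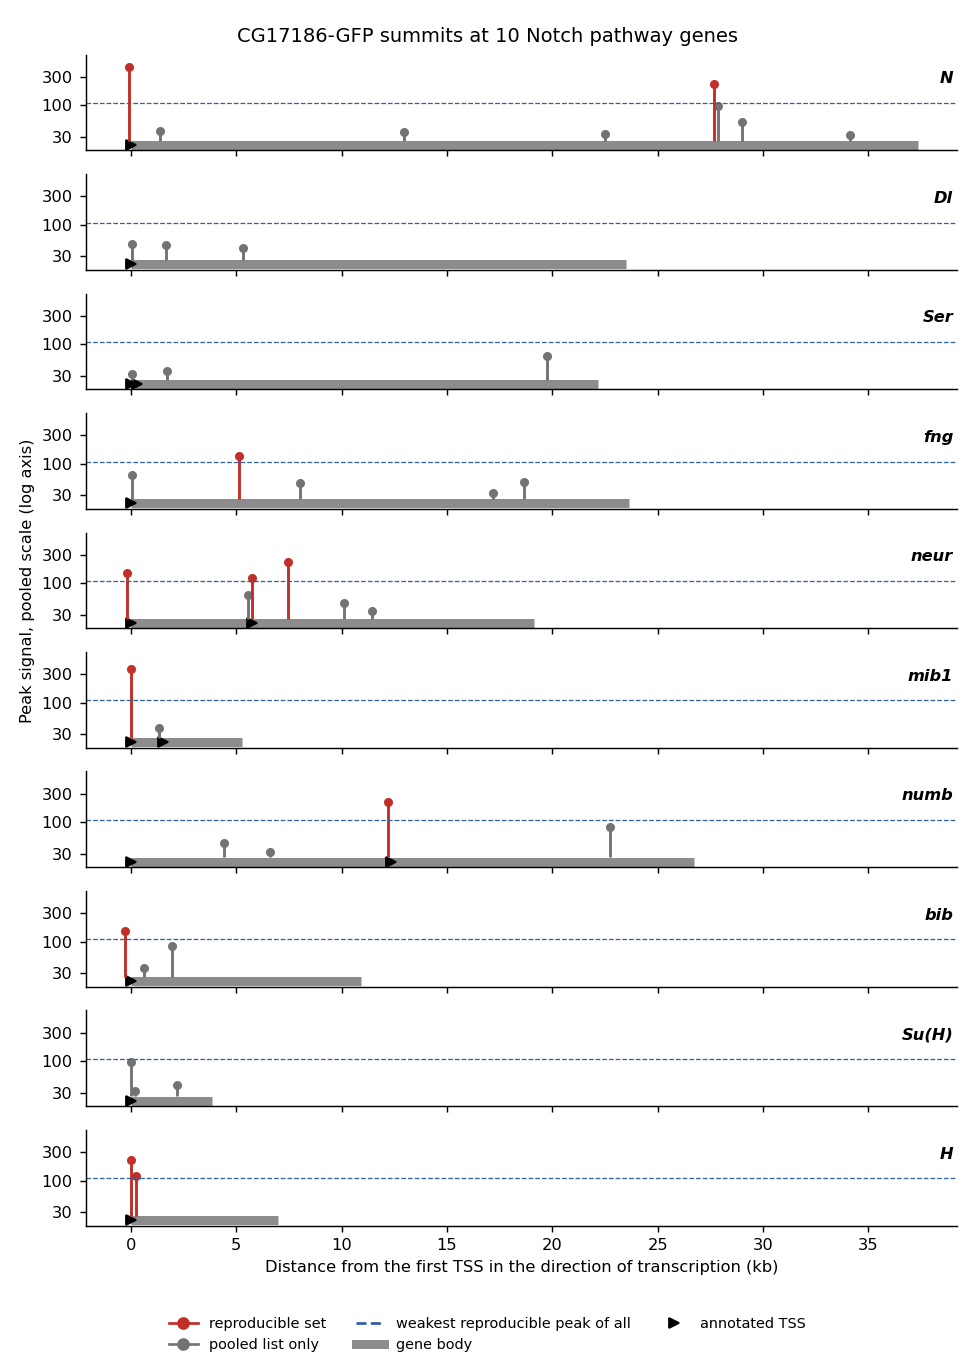
Peak signal on the pooled scale (vertical log axis) against distance from the first TSS in kb, with 1 panel for each of the 10 genes. Red stems are the 11 reproducible summits, grey stems the 28 summits found only in the pooled list, arrowheads the annotated TSSs and the dashed line the weakest reproducible peak, and no red stem stands in the panels of Dl, Ser and Su(H).

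The receptor gene N (FBgn0004647, chrX:3134870-3172221, + strand, 37.4 kb) had the strongest summit. Its promoter peak, chrX:3134666-3134867, had a pooled signal of 427.368 and rank 249, with the summit 109 bp upstream of the only TSS. The peak had a signal of 157.734 in replicate 1, 84.8 in replicate 2 and 190.458 in replicate 3, at ranks 244, 603 and 173. Relative signal was 2.43, 1.72 and 2.91, or 2.35 ± 0.598 (SD, n = 3), and replicate 2 was the lowest. The replicate summits lay 73, 81 and 90 bp upstream, and no other gene has a TSS within 500 bp. The peaks ranked directly above and below it lie nearest to slbo, which encodes a C/EBP transcription factor (427.652), and to Hr4, which encodes a nuclear receptor (427.364), and both lie over 5 kb from a TSS, at 6348 and 5788 bp.

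A further summit of N lay in intron 5 of 8, 27659 bp downstream of the TSS, with a pooled signal of 229.588 and rank 1003. Relative signal was 1.22, 1.33 and 1.26 in replicates 1, 2 and 3 (1.27 ± 0.0565, SD, n = 3). These values were the closest together among the 11 summits. The pooled list split off a weaker summit 27867 bp from the TSS (97.1, rank 4417), which overlaps the same replicate peaks. The other 5 pooled summits in the body of N had signals between 32.4 and 52.7.

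The ligand genes were at the low end of the list. Dl (FBgn0000463, chr3R:19302731-19326217, − strand, listed as Delta in the annotation), which encodes the ligand of lateral inhibition, had its pooled promoter summit 64 bp downstream of the TSS with a signal of 47.4 and rank 11835. Replicate 1 gave 19.1 and replicate 3 gave 23.6 there, and replicate 2 had no promoter peak. Ser (FBgn0004197, chr3R:27172090-27194267, − strand), which encodes the other ligand, had a pooled promoter signal of 32.7 at rank 22947, near the end of the list. Of the replicates, replicate 3 had a promoter peak at Ser, with a signal of 28.8. The strongest summit at Ser was in intron 13 of 14, 64.6 at rank 7360, still below the reproducible set.

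The receptor's modifier gene fng (FBgn0011591, chr3L:20925891-20949512, − strand) encodes a glycosyltransferase that alters the response of Notch to its ligands. Its reproducible summit was in intron 1 of 6, 5123 bp downstream of the TSS, with a pooled signal of 136.583 and rank 2725. The replicates gave 32.3, 26.5 and 67.0, at ranks 5478, 4831 and 1776. Replicate 3 stood apart from the other two, and the relative signal of 0.686 ± 0.292 (SD, n = 3) had the widest spread for its size among the 11 reproducible summits, with a coefficient of variation of 42.6%. The fng promoter itself was present in the pooled list alone of the 2 merged lists, 37 bp downstream of the TSS at 65.3 and rank 7278, and in all 3 replicate lists (29.6, 12.02 and 16.3).

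Of the ubiquitin ligases that drive endocytosis of the ligands, mib1 (FBgn0263601, chr3L:16006552-16011812, − strand) had the second strongest summit of the list. The pooled signal was 364.704 at rank 355, 6 bp upstream of its first TSS. The replicates gave 123.516, 88.9 and 141.6, at ranks 422, 539 and 312. Relative signal was 1.91, 1.80 and 2.16 (1.95 ± 0.186, SD, n = 3), and each replicate value exceeded all replicate values of the 9 summits below it in the order. Its neighbours in rank are promoter peaks of CG13751 (364.815) and of the tRNA methyltransferase gene Trmt6 (364.504). The second TSS of mib1, at 16010309, had a pooled summit of 37.7 at rank 17698.

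The other ligase gene, neur (FBgn0002932, chr3R:9020348-9039471, − strand), had 3 reproducible summits, the most of any of the 10 genes. The strongest was in intron 1 of 2, 1690 bp downstream of the internal TSS, with a signal of 224.598 and rank 1051. Its replicates gave 72.3, 57.0 and 80.8, and a relative signal of 1.17 ± 0.0601 (SD, n = 3), so the values lay close together. The distal promoter summit, 177 bp upstream of the first TSS, had a signal of 148.007 and rank 2380. It is the only member summit within 500 bp of the TSS of another coding gene, hyx, which encodes a subunit of the Paf1 elongation complex and starts 118 bp from the summit in the opposite direction. The TSSs of neur and hyx are 295 bp apart, and which of them the peak belongs to cannot be told apart. The replicate summits lay 254, 210 and 228 bp upstream of the neur TSS, on the hyx side of the pooled summit. Replicate 1 was low at this summit (34.4, rank 5050), with 50.7 and 67.3 in replicates 2 and 3, and relative signal was 0.861 ± 0.287 (SD, n = 3). The internal promoter summit lay 1 bp downstream of the TSS at 9033731, with a signal of 122.289, rank 3269 and relative signal 0.713 ± 0.139 (SD, n = 3). Its summit lay 123 bp upstream in replicate 1, and 17 and 2 bp downstream in replicates 2 and 3. The pooled list split off a weaker summit 208 bp upstream (63.7, rank 7493), which overlaps the same replicate peaks.

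For numb (FBgn0002973, chr2L:9437469-9464184, + strand), whose protein blocks Notch in 1 daughter of a dividing neural precursor, the summit was at the internal TSS. That TSS, at 9449830, lies 12361 bp from the first. The summit was 149 bp upstream of it, with a signal of 219.281 and rank 1110. The replicates gave 66.4, 75.5 and 53.5, at ranks 1729, 771 and 2776, and relative signal was 1.02, 1.53 and 0.816 (1.12 ± 0.366, SD, n = 3). At numb replicate 2 was the highest, whereas at the N promoter it was the lowest. No pooled summit lay within 500 bp of the first TSS. A pooled summit of 83.8 (rank 5343) was found 10361 bp downstream of the internal TSS, in replicates 1 and 3.

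For bib (FBgn0000180, chr2L:9984645-9995538, + strand), a neurogenic gene whose protein belongs to the aquaporin family, the summit was the farthest from a TSS among the promoter summits, 282 bp upstream. The signal was 152.524 at rank 2262, and 55.1, 53.1 and 54.0 in the replicates. Relative signal was 0.850, 1.07 and 0.824 (0.916 ± 0.138, SD, n = 3). The replicate summits were 233, 398 and 220 bp upstream. The non-coding gene lncRNA:CR13130 starts 380 bp from the pooled summit. The nearest member summit beyond the 500 bp window was also at bib, a pooled summit 594 bp downstream with a signal of 36.7 and rank 18520.

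Of the nuclear members, H (FBgn0001169, chr3R:20621938-20628915, + strand), the antagonist that joins Su(H) to corepressors, had 2 reproducible summits. The stronger was 5 bp upstream of the TSS, with a signal of 220.266 and rank 1099. The replicates gave 66.3, 67.7 and 87.4, and relative signal was 1.02, 1.37 and 1.33 (1.24 ± 0.191, SD, n = 3). The weaker was 212 bp downstream, 122.095 at rank 3279. By overlap both take the same replicate peaks. Matched by summits within 200 bp instead, the downstream summit had relative signals of 0.594, 0.976 and 0.725 (0.765 ± 0.194, SD, n = 3). Su(H) (FBgn0004837, chr2L:15039488-15043334, + strand), the DNA-binding factor of the pathway, had a pooled summit 8 bp upstream of its TSS with a signal of 96.9 and rank 4428, below the weakest reproducible peak. Its promoter was in all 3 replicate lists, at 27.5, 31.9 and 38.2 and ranks 6887, 3655 and 4789, and relative signal was 0.551 ± 0.114 (SD, n = 3).

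**Figure D2:**
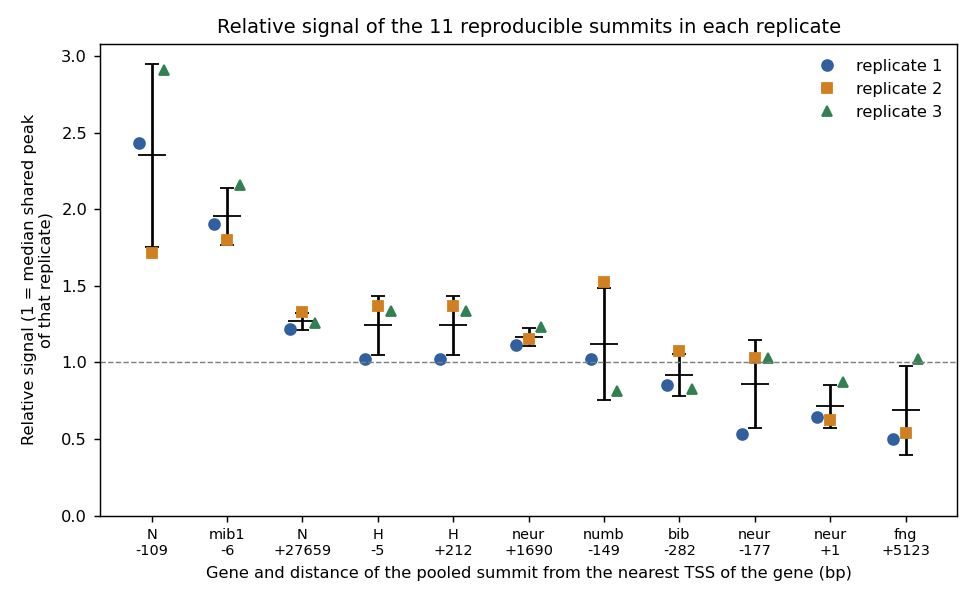
Relative signal (vertical axis, 1 is the median shared peak of that replicate) of the 11 reproducible summits, each named by its gene and distance from the nearest TSS of that gene. Coloured points are the 3 replicates and black bars the mean ± SD (n = 3), and the N and mib1 promoters lie above 1.7 in every replicate. The 2 H summits are drawn with the same replicate peaks.

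In the order of mean relative signal, the N promoter (2.35) and mib1 (1.95) came first and the neur internal promoter (0.713) and the fng intron (0.686) last. The only neighbours in this order whose mean ± SD ranges did not overlap were mib1 and the N intron (1.27). The N and mib1 promoters were not separated by their spread, nor were any of the summits from the N intron downward from the next in the order.

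The promoters that the reproducible set lacked had weaker entries in the longer lists. The pooled list also holds background, so an entry there does not by itself show binding. All 10 genes had a promoter summit in the pooled list, against 55.2% of coding genes, and 8 (all but Dl and Ser) had one in each of the 3 replicate lists, against 42.4%. The replicate lists held promoter summits of 9, 8 and 10 of the genes and 62, 39 and 56 summits in all, in replicates 1, 2 and 3. Replicate 2 thus had the fewest, and its list is also the shortest. The share of coding genes in each single list is not given here. The 42.4% requires all 3 lists, so it cannot be set beside these counts. The pooled list held 39 summits, of which 28 were outside the reproducible set.

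**Figure D3:**
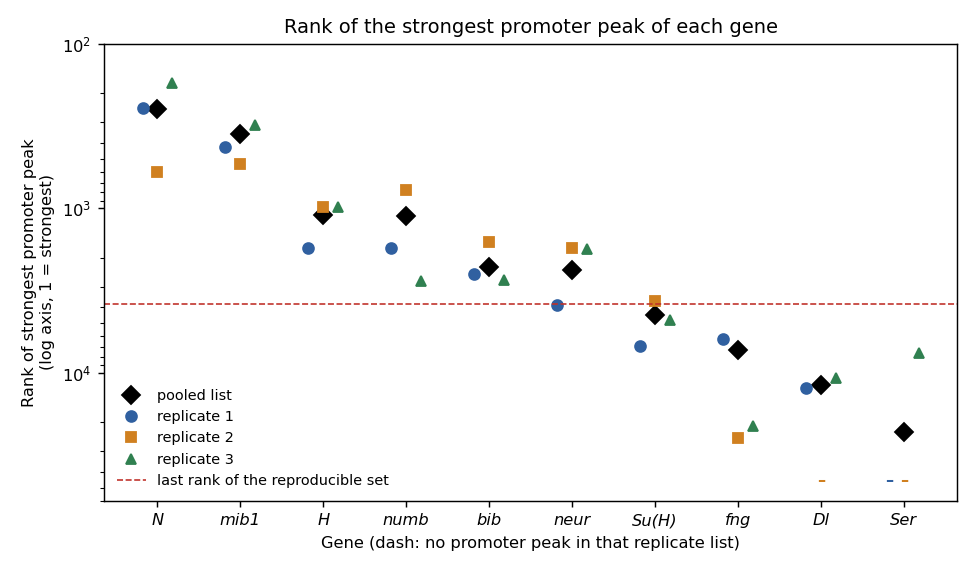
Rank of the strongest promoter peak of each gene (vertical log axis, strongest at the top) in the pooled list and in each replicate list. The dashed line is rank 3814, the last of the reproducible set, and dashes at the bottom mark replicate lists with no promoter peak of that gene, which are 1 for Dl and 2 for Ser.

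The positions of the 8 promoter summits can be set beside promoter summits in general. Of the 8, 6 (75.0%) were upstream of the TSS, against 80.9% of the 2890 reproducible summits at coding promoters, and the median position was 57.5 bp upstream against 51 bp. Within 100 bp of the TSS were 3 of 8 (37.5%), at mib1, H and the internal TSS of neur, against 69.3%. A summit shared by the promoters of at least 2 coding genes made up 44.5% of the 2890 (1286 summits), and 1 of the 8 here. Apart from neur, with hyx, and Su(H), with a gene 627 bp away, no member has a divergent coding TSS within 5 kb upstream, the next being 5037 bp away at H. The count of 8 is too small for these shares to be read as a difference.

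Sequence around the summits was searched on both strands for 10 words. The core promoter words were TATCGATA, known for DREF and BEAF-32, then GGTCACACT, known for the promoter factor M1BP, and CANCNCTA, which has no factor assigned here. The others were CAGGGCTG, then the E-box CAGCTG, then AACAGCAC, then CAGGTAG, known for the early embryonic factor Zelda, and GAGAGAG, known for the GAGA factor. Su(H) itself is known to bind GTGGGAA as well as GTGAGAA. None of the 10 contains another. Of the 11 member summits, 0 had any of them within 50 bp, against 32.5% (1239) of the 3814 reproducible summits. Within 25 bp the count was 0 against 18.7%, and within 100 bp it was 4 against 50.2%. The 4 were the GGTCACACT of N, 20 to 12 bp upstream of the TSS, the CANCNCTA of H, 65 to 58 bp upstream, the CAGCTG of numb, 91 to 86 bp upstream, and a CAGCTG near the internal promoter summit of neur. All 3 in sequences printed above can be seen in capitals there. The shorter GTCACACT, chosen after the sequences were seen and contained in GGTCACACT, was within 50 bp of the mib1 summit, 29 to 22 bp upstream of the TSS, and within 50 bp of 5.27% of all reproducible summits. Within 100 bp of the summit, GGTCACACT was present at 7.92% of the 3814 reproducible summits, CANCNCTA at 16.7% and CAGCTG at 14.8%. The next shares are for another window, at TSSs with or without a peak. In the 100 bases upstream of 19253 coding TSSs, GGTCACACT was present in 1.91%, GTCACACT in 2.08%, CANCNCTA in 6.05% and CAGCTG in 7.53%. The median share of G and C in the 101 bases around the summits was 43.6% in members and 39.6% overall. A match shows only that the letters are there.

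The wider pathway, 65 other genes in 7 roles, had a reproducible promoter summit at 25 (38.5%), against the 28.0% of all coding genes given above. With gene bodies counted the number was 30 (46.2%), against 30.2%. By role, genes that sort or ubiquitinate the receptor had a summit at 5 of 7, its proteolysis at 3 of 6 (the gamma-secretase genes Psn, aph-1 and pen-2), and ligand endocytosis at 4 of 9. The numb partners had 4 of 9 (aPKC, par-6, brat and baz), receptor glycosylation and maturation 3 of 7 (Fur1, rumi and shams), and nuclear cofactors 4 of 11 (CycC, gro, skd and CtBP). The Enhancer of split and Bearded complexes, the classic targets of the pathway, had 2 of 16. Without those complexes the count was 23 of 49 (46.9%). Leaving out the role with the lowest share raises the percentage by construction. The planned counts were by role, and this one was not among them. The counts describe the lists and were not tested.

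**Figure D4:**
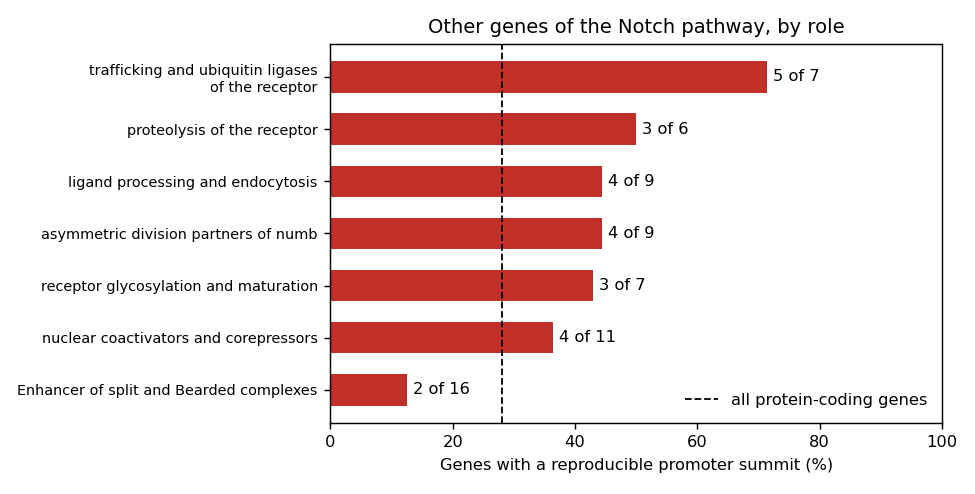
Percentage of genes with a reproducible promoter summit (horizontal axis) in 7 roles of the wider Notch pathway, with the counts beside the bars. The dashed line is the 28.0% of all protein-coding genes, and the bar of the Enhancer of split and Bearded complexes, 2 of 16, is the one that ends below it.

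The strongest of these summits were within 500 bp of TSSs of endocytosis and sorting genes, and those at Nak and lgd are shared with another coding gene. Nak, which encodes the Numb-associated kinase, had a signal of 585.9 at rank 128. It was followed by lgd, an endosomal regulator of Notch (560.4, rank 142), and by aux, the clathrin-uncoating auxilin (433.7, rank 239). All 3 are above the N promoter in rank. CycC, a cyclin of the Mediator kinase module (414.8, rank 265), and Fur1, a furin protease (400.0, rank 282), came next. The clathrin adaptor gene AP-2alpha had 354.9, the corepressor gene gro 342.3 and the ligase gene Su(dx) 333.0. The dynamin gene shi had 252.1, the ESCRT gene shrb 239.8 and the O-glucosyltransferase gene rumi 234.3.

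Among the target genes the 2 with a summit were E(spl)m3-HLH (274.0, rank 654) and E(spl)m7-HLH, which encode basic helix-loop-helix repressors. The summit of E(spl)m3-HLH lay 365 bp upstream of the TSS. The median signal at the 25 wider genes was 217.454. Of the 25, 18 (72.0%) had their strongest promoter summit within 500 bp of the TSS of another coding gene as well, such as Tango6 for Nak, Reps for lgd and UQCR-C1 for CycC. For these 18 the peak cannot be given to either gene. The matching share over all coding genes with a promoter summit is not given here. The 44.5% given above counts summits and not genes, so it cannot be set beside the 72.0%. The other wider genes with a shared summit were Fur1 (with Vps33B), AP-2alpha (ebi), Su(dx) (lectin-22C), shrb (Prp38), rumi (Usp12-46 and CG7029), aPKC (ckn), Psn (Las), skd (Pdss2), aph-1 (Snx21), CtBP (CG8031), par-6 (CG8188), brat (Polr1D), pen-2 (Ote), Nedd4 (Edc3) and shams (CG11920). At aux, gro, shi, E(spl)m3-HLH, E(spl)m7-HLH, Hrs and baz no other coding TSS lay within 500 bp of the summit.

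The other member promoter peaks stood in rank between peaks nearest to the following genes, from 7 bp away from the TSS at IntS11 to 11519 bp at ppk8. H stood between CG13585 and CG10366, numb between DPCoAC and Itpr (the inositol trisphosphate receptor), and bib between Stt3B (an oligosaccharyltransferase subunit) and ppk8. The distal neur peak stood between IntS11 (an Integrator subunit) and Larp4B, the internal one between pds5 (a cohesin factor) and px, and the second H peak between yps and CG8490. Likeness here is in pooled signal alone.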

How the data were processed

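The authors deposited dm6 peak lists for each of 3 replicates, for the replicates pooled and, by the IDR procedure, a thresholded list, per the deposited read-me tables, each called against a control alignment. The signal value of each peak is the authors' own (column 7) and served to order peaks inside 1 list. Which aligner and peak caller were used, in which version and with which IDR threshold, is not given in the sources used here. Lists on the dm3 build were not used here.

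Gene models were those of Ensembl release 115 (BDGP6 annotation 6.54). A summit belonged to a gene when it lay within 500 bp of any annotated TSS or inside the gene body. Replicate peaks were matched by an overlap of at least 1 bp, taking the strongest. Dl was matched as Delta, and 3 wider genes by an older name. Values are mean ± SD over 3 biological replicates, and no p-value was computed. Members and lists were chosen with earlier results of these data known. Named genes are the members, those sharing their summits or next to them in rank, and wider genes with a promoter summit, with values for the 12 strongest. Genes that share a summit with wider genes are named too, chosen after their values were seen. Only the promoter distance rule was checked on simulated summits, placed at a TSS and at and just beyond 500 bp upstream. Assignment to gene bodies and matching of replicate peaks were not checked this way. Python 3.11.15, numpy 2.4.6, pandas 2.3.3 and matplotlib 3.10.9 were used.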

Additional observations from a re-analysis of the deposited data

How the results depend on the processing

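Windows of 250 bp and 1 kb, the nearest TSS alone, the TSSs of coding transcripts, overlap of the peak interval, the strongest 1907 peaks of the reproducible set and the strongest 3814 peaks of each replicate left 4 to 7 members with a promoter summit. The share of all coding genes ran from 15.6% to 30.4% over the same settings. With gene bodies counted, 5 to 7 members had a summit, against 17% to 32.3% of coding genes. The 5 were among the strongest 1907 peaks, where that share was the lowest. The wider genes with a promoter summit were 19 to 28 of 65. There were 19 with the nearest TSS alone, against 20% of coding genes, and 19 among the strongest 1907 peaks, against 15.6%. The 28 came with the 1 kb window, against 30.4%. In the pooled list the 250 bp window gave 9 members, against 47.5% of coding genes, and the wider one 10, against 61.8%. The members with a promoter summit in all 3 replicate lists were 8 to 9 when a replicate was left out. The count was 8 without replicate 1, against 44.7% of coding genes, and 8 without replicate 3, against 45.2%. It was 9 without replicate 2, where the share of coding genes was also the highest, at 50%. The 11 member summits became 6 among those 1907 peaks and 7 among the strongest peaks of replicate 1, with 12 and 13 in replicates 2 and 3. Words within 100 bp of the summit were found at 4 members' summits and not 0, and adding GTCACACT, chosen after seeing the data, gave 1 within 50 bp. Leaving out a replicate gave 0.518 to 0.780 for the fng intron and 2.08 to 2.67 for the N promoter in relative signal. Dividing by the median of the whole replicate list, a lower number, raised all 11 relative signals, from 2.35 to 8.06 for the N promoter. Matching by summits lowered the second H summit from 1.24 to 0.765 and moved the other 10 by less than their SD. No paired analysis was possible because there is 1 group. The unknown depth limits what the absence of a peak shows: at Dl, Ser and Su(H) a summit was not detectable in the reproducible set. All 3 had one in the pooled list, which also holds background. The list of 10 genes is small, so 1 gene moves a share by 10 percentage points.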
